A study of Mus musculus with 4 samples.

Results

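The nuclear-encoded subunits of the mitochondrial respiratory chain and of the ATP synthase were read across 4 arrays of mouse dendritic cells. Members were the genes with a probe set annotated to exactly 1 symbol that begins with Ndufa, Ndufb, Ndufc, Ndufs, Ndufv, Uqcr, Cox4 to Cox8 or Atp5, or that is Sdha, Sdhb, Sdhc or Sdhd. This rule found 84 genes among the 12393 named genes of the array, with 38 assigned to complex I, 4 to complex II, 8 to complex III, 17 to complex IV and 17 to complex V. Ndufa4 was placed with complex IV, where its protein is now known to belong, and 5 Ndufaf genes, which encode assembly factors and not subunits, were kept with complex I.

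All 4 samples were labelled as CD11c+ dendritic cells of genotype IL10-/-, so the control shares the deficiency in interleukin 10 with the other groups. The groups were 6 h of incubation in media alone (MEDIA), with SEA, with LPS or with both (SEA/LPS), and each was 1 array. LPS is bacterial lipopolysaccharide, and the labels do not spell out SEA. All carry the same lot batch label, EXPT1. The sources used here do not give doses, the tissue of origin, the animals' age or whether cultures were separate.

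The respiratory chain moves electrons from NADH, at complex I, and from succinate, at complex II, through ubiquinone to complex III, cytochrome c and complex IV, where oxygen is reduced. Complexes I, III and IV pump protons, and the ATP synthase, complex V, uses the gradient to make ATP. Dendritic cells and macrophages that meet LPS are known for a shift towards glycolysis, with less oxygen consumption where nitric oxide is made. Most subunits are encoded in the nucleus and are the genes read here.

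A signal is the authors' array intensity for 1 probe set, and a difference is the log2 ratio of 2 signals after values at or below a floor of 33.3 were raised to it. Of the 84 genes, 81 were above the floor on at least 1 array and are called measured. Cox7c, Cox6b2 and Cox8b were not. With 1 array per group no difference has a replicate check, and no test was possible. Genes were counted by size, at 2-fold (log2 1) or at 1.5-fold, beside the same count over all 9473 measured genes. Signals of different genes come from different probe sets, so a gene is compared between arrays and not ranked against another. Signals were summed over genes only for marker lists, where the brightest genes weigh most.

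The arrays had the same trimmed mean, and their median signals ran from 45.1 with SEA/LPS to 53.2 with SEA. For Gapdh, the 3' probe set read 2.21 times (MEDIA), 2.69 times (SEA), 2.42 times (LPS) and 3.12 times (SEA/LPS) the 5' one. This ratio rises as RNA degrades. For Actb it was highest with SEA, at 1.37, then 1.26 (SEA/LPS) and 1.24 (LPS), and lowest in MEDIA. Gapdh and Actb thus differ on which array reads highest. Of 10 dendritic cell markers all 10 were measured, with summed signals of 18438 (MEDIA), 19414 (SEA), 23982 (LPS) and 17673 (SEA/LPS), highest on the LPS array. Cd74 and H2-Ab1 made up most of each sum, with 8639 and 5558 in MEDIA. Within the list, Irf8, Irf4, H2-Ab1 and Cd74 were higher with LPS than in MEDIA (1.96, 0.73, 0.54 and 0.38 on the log2 scale), while Batf3, Flt3, Ciita, Cd209a, Zbtb46 and Itgax were lower (-0.97 to -0.11). Itgax, which encodes CD11c, read 2732, 2181, 1851 and 2093 in the order MEDIA, SEA, LPS and SEA/LPS. Of 5 macrophage and monocyte markers 5 were measured too, among them Csf1r and Cd14, with summed signals of 8439, 10023, 11427 and 11484. Most of the higher sum with LPS lay in Cd14 (1559, 3112, 5401 and 4499.5). Fcgr1 (404, 452, 620.5 and 1036) and Mertk were higher with LPS than in MEDIA too, by 0.62 and 0.29. Csf1r (5629.6, 5706, 4520 and 5008) and Adgre1 were lower with LPS than in MEDIA, by -0.32 and -0.13. Of 4 T cell markers 0 were measured, and the other marker lists (neutrophil, B cell, NK cell, mast cell, erythroid and fibroblast) summed to between 17.6 and 399.5 on any array. The part of RNA degradation and of these cell types in the differences below was not tested.

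With LPS, the members as a group were slightly lower than in MEDIA. Their median log2 difference was -0.27 (lower quartile -0.55, upper quartile -0.04), against -0.06 for all measured genes. Of the 81 measured members 65 lay below 0, or 80.2%, where 53.3% of all genes did. The differences were small. At 2-fold, 4 members were lower and 1 was higher, against a background of 8.43% lower and 6.06% higher. At 1.5-fold, 18 members (22.2%) were lower and 4 higher, where the background was 21.0% and 14.1%, so the share past 1.5-fold lower was close to that of all genes. The median stayed below 0 under every scaling tried. Among genes with a mean log2 signal of at least 8, a range that holds 68 members, the median of all genes was -0.14 and that of the members -0.27. In whole-culture RNA, fewer cells of a type and less RNA per cell cannot be told apart.

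The LPS array was the lowest of the 4 for 55 of the 81 members, or 67.9%, where it was the lowest for 32.4% of all genes. The count was 49 of 80 when arrays were scaled to a common 75th percentile and 63 of 81 when scaled to the hybridisation controls. The share of all genes was not taken under these scalings. Scaling to the hybridisation controls lowered the LPS array as a whole, with a median of -0.56 for all genes against MEDIA. Without added scaling, the count by complex was 30 of 38 for complex I, 3 of 4 for complex II, 4 of 8 for complex III, 6 of 14 for complex IV and 12 of 17 for complex V. The SEA array was the highest for 36 members (44.4%), where it was for 29.0% of all genes. It was the lowest for 1 member, Uqcr10, where it was for 15.9% of all genes. The 2 other probe sets of Uqcr10 had SEA as the highest array, at 0.52 and 0.13 over MEDIA.

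**Figure D1:**
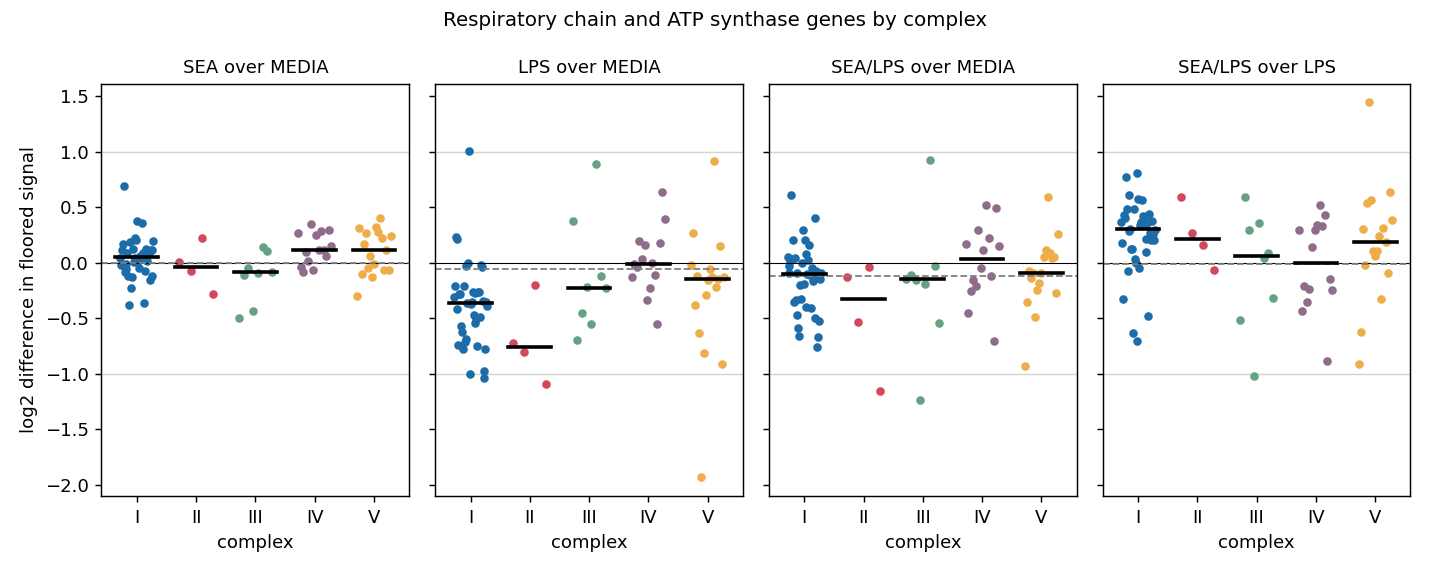
Log2 difference of each measured member (points) by complex I to V in 4 comparisons, with the median of each complex as a black bar, the median of all measured genes as a dashed line and 2-fold marked by light lines. With LPS over MEDIA the medians of complexes I and II sit at -0.36 and -0.76 and that of complex IV at -0.01, and most points of complex I move above 0 in SEA/LPS over LPS, where its median is 0.30.

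The effect of SEA in the presence of LPS was read as SEA/LPS over LPS. The members were higher, with a median of 0.26 (lower quartile -0.04, upper quartile 0.38) against -0.01 for all measured genes, and 58 of 81 (71.6%) lay above 0, where 42.7% of all genes did. At 1.5-fold, 7 were higher and 6 lower, against a background of 7.76% and 13.4%, and at 2-fold 1 was higher and 1 lower, against 1.39% and 3.47%. Scaling moved the split of these calls: 12 were higher and 4 lower with a common 75th percentile, where 10.2% and 11.9% of all genes were. With the hybridisation controls 25 (30.9%) were higher and 3 (3.70%) lower, where 16.8% and 6.05% of all genes were. After quantile normalization 5 were higher and 5 lower, or 6.25% each, beside 9.89% and 10.4%. The members' median was above 0 under each. Among the genes with a mean log2 signal of at least 8, all genes had a median of 0.12 and the members 0.27, so part of the higher reading was shared with other bright genes. This comparison uses the same LPS array as the one before, so the values of both are given side by side below and are not independent of each other.

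Set against MEDIA, the SEA/LPS array showed little difference for the group without added scaling. The median was -0.10 against -0.12 for all genes, with 53 of 81 members (65.4%) below 0, where 58.8% of all genes were. At 1.5-fold 3 members were higher (background 9.89%) and 8 lower (background 20.2%), and at 2-fold 0 were higher (background 4.54%) and Uqcrc1 and Sdhd were lower (background 7.05%). The members' median was 0.10 when arrays were scaled to a common 75th percentile. It was further below 0 with the hybridisation controls, as was that of all genes (-0.42). There 21 members (25.9%) were at least 1.5-fold lower, where 38.1% of all genes were. SEA alone gave a median of 0.06 against 0.00, with 50 members (61.7%) above 0 beside 48.7% of all genes. The median was -0.02 when scaled to the hybridisation controls. No member differed by 2-fold (background 0.644% higher and 0.633% lower), and at 1.5-fold Ndufa2 was higher and none was lower (background 5.11% and 4.01%).

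**Figure D2:**
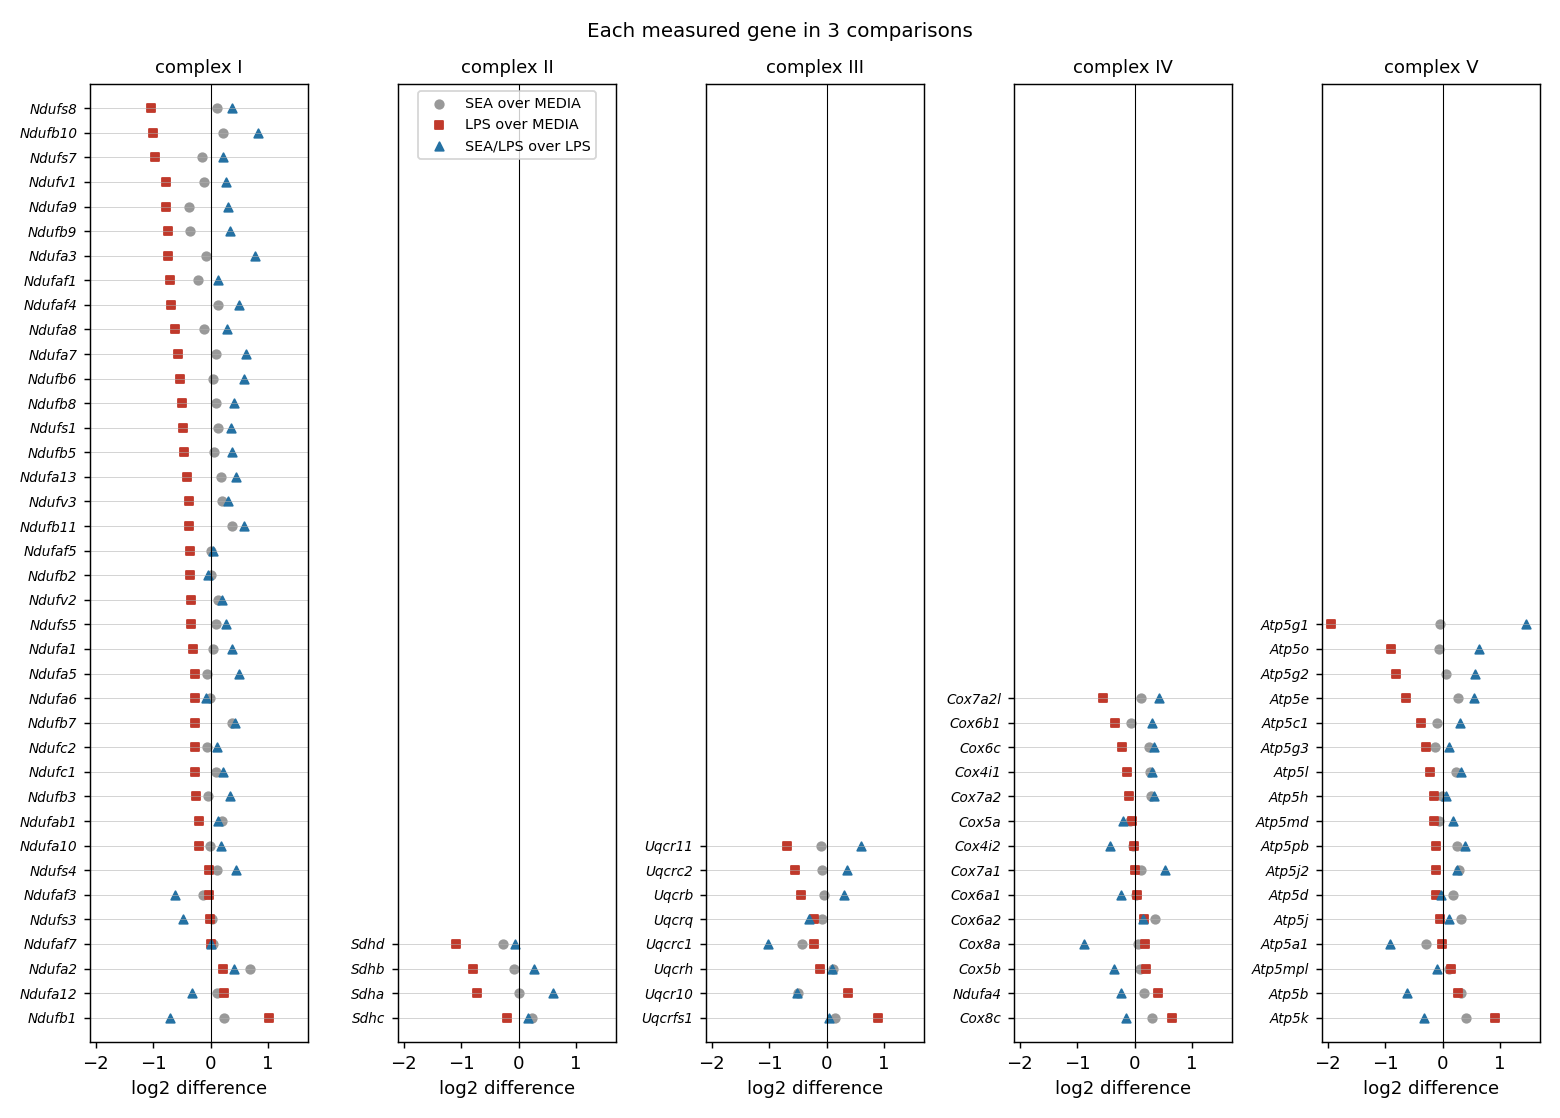
Log2 difference of each of the 81 measured members in SEA over MEDIA (grey circles), LPS over MEDIA (red squares) and SEA/LPS over LPS (blue triangles), by complex and ordered by the LPS difference, the lowest at the top. The red squares of complexes I and II lie mostly left of 0 and the blue triangles mostly right of it, while Uqcrfs1 and Atp5k stand to the right with LPS at 0.89 and 0.92, as does Ndufb1, 2.01-fold higher.

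Complex I, the NADH dehydrogenase, had 34 of 38 members below 0 with LPS and a median of -0.36, which was -0.23 with a common 75th percentile and -0.90 with the hybridisation controls. Its 6 core subunits, which carry the flavin and the iron-sulphur clusters or sit beside them, had a median of -0.63, with 5 between -1.04 and -0.35 and Ndufs3 at -0.02. Ndufs8, an iron-sulphur subunit near the quinone site, had signals of 891 (MEDIA), 964 (SEA), 433 (LPS) and 562 (SEA/LPS). Its LPS signal was 2.06-fold under MEDIA, and both arrays with LPS lay under both arrays without it. The 5 other probe sets of Ndufs8 read between -1.05 and 0.024 for the same comparison, and the value of 0.024 is the one taken when cross-hybridising probe sets are left out.

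Ndufs7, the other iron-sulphur subunit at that site, read 597, 536, 304.5 and 352 in the order MEDIA, SEA, LPS and SEA/LPS. Ndufv1, which binds NADH and the flavin, read 342, 314, 199 and 238. For both genes the LPS array was the lowest and SEA/LPS stood nearer to LPS than to MEDIA, with differences over LPS of 0.21 and 0.26. Ndufs1, which carries several iron-sulphur clusters, had differences of -0.49 with LPS and 0.36 for SEA/LPS over LPS, and Ndufv2 of -0.35 and 0.20. Ndufs3 went another way. It read 439.9, 445, 434 and 312, so that SEA/LPS was the low array (-0.48 over LPS). The core group as a whole was still lower with SEA/LPS than in MEDIA, at a median of -0.51 with 6 of 6 below 0, against -0.05 for the 27 accessory subunits. The core median has few genes behind it and no replicate.

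Of the 27 accessory subunits of complex I, which surround the core and stabilise it, 24 were below 0 with LPS (median -0.34) and 23 above 0 in SEA/LPS over LPS (median 0.34). Ndufb10, in the membrane arm, had signals of 410.5 (MEDIA), 473 (SEA), 205 (LPS) and 359.7 (SEA/LPS). This was 2.01-fold lower with LPS and 1.76-fold higher again with SEA/LPS, a single low array among the 4. Ndufa3 showed the same shape with 1136, 1071, 681 and 1165, as did Ndufa7 with 878, 931, 593 and 906. Ndufa9, which sits where the arms of the complex meet, read 449.6, 346, 262 and 325, and Ndufb9 read 1345, 1048, 802 and 1013. On these probe sets SEA alone was lower than MEDIA too, by -0.38 and -0.36, but the other measured probe set of Ndufb9 gave 0.43 for SEA over MEDIA, the opposite sign.

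Ndufb1 was the exception among the accessory subunits. It read 389.9, 456, 782 and 479.9, which is 2.01-fold higher with LPS than in MEDIA while SEA/LPS stood 1.63-fold under LPS. It had 1 probe set. Ndufa2 read 546, 881, 632 and 835, higher on both arrays with SEA (0.69 for SEA over MEDIA and 0.40 for SEA/LPS over LPS), and Ndufa12 was at 0.24 with LPS and -0.33 for SEA/LPS over LPS. The other measured probe sets of Ndufa12 gave -0.78 and 0.024 with LPS, so its sign there depends on the probe set. Ndufa1 and Ndufv3 read 1949, 2011, 1570.1 and 2022, and 1798, 2064, 1376 and 1687, again with LPS lowest. The remaining accessory subunits lay between -0.62 and -0.04 with LPS. Ndufab1, which also serves as the mitochondrial acyl carrier protein, was at -0.21, and Ndufs4, which is lost in inherited complex I deficiency in humans, was at -0.04.

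The assembly factors of complex I read 175.1 or lower on every array. Ndufaf1 read 101, 86.5, 61.6 and 67.1, and Ndufaf4 read 120.1, 131, 74.6 and 104, so both were low with LPS. Ndufaf3 read 175, 159.8, 171 and 111, with SEA/LPS as the low array. Ndufaf5 was at the floor with LPS and at least 1.29-fold lower there than in MEDIA, and Ndufaf7 passed the floor with SEA alone, at 34.4.

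Complex II, succinate dehydrogenase, links the chain to the tricarboxylic acid cycle and is wholly encoded in the nucleus. All 4 genes were below 0 with LPS, with a median of -0.76 that was -0.62 with a common 75th percentile and -1.31 with the hybridisation controls. Sdha, the flavoprotein that oxidises succinate, had signals of 493 (MEDIA), 496 (SEA), 299 (LPS) and 452 (SEA/LPS). Sdhb, the iron-sulphur subunit, read 915, 866, 525 and 634. Both had LPS as the lowest array, by 1.65-fold and 1.74-fold under MEDIA, and a higher reading with SEA/LPS than with LPS (0.60 and 0.27).

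Sdhd, a membrane anchor, read 537, 443, 251 and 241, which was low on both arrays with LPS. Its other probe set, an _x_at set, gave -0.55 with LPS and 1.11 for SEA/LPS over LPS, so the 2 disagree on the SEA/LPS array. Sdhc, the other anchor, read 352, 411, 306 and 343 and was at -0.20 on the probe set used and at -1.06 on its second one, so its size with LPS depends on the probe set as well. The other probe set of Sdha read -0.17 with LPS and -0.25 for SEA/LPS over LPS.

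Promoters of Sdha and Sdhd are shown because they hold the motifs of factors known to control respiratory genes. Windows of 250 bases before to 50 after each start, from RefSeq (GRCm38.p6), were matched for 70 of the 84 members. They were searched on both strands for the NRF1 motif, the ETS motif CCGGAAG bound by GABP, and the YY1 motif ATGGCGGC. The NRF1 motif was in 16 of 70 members (22.9%) against 7.17% of 17491 protein-coding genes, the ETS motif in 18 (25.7%) against 12.9%, and the YY1 motif in 5 (7.14%) against 3.50%. Matches of the 3 motifs can overlap each other. All 5 with the YY1 motif were complex I genes (Ndufa7, Ndufa9, Ndufb5, Ndufs4 and Ndufs7), a complex that holds 35 of the 70 matched members. After the start, the YY1 letters lay mostly on the sense strand (305 matches against 87), unlike those of NRF1 (157 and 152) and ETS (347 and 375). Sdhd, Cox6a1, Atp5h and Atp5k had both of the other motifs. These are matches of letters and not binding sites. The 250 bases before the start are printed 5′ to 3′ along the gene, with motif letters in capitals. In Sdha the NRF1 letters begin at -98, -55 and -10 from the start. In Sdhd they begin at -79, and the ETS letters, on the other strand, at -46.
Sdha, chr13:74350241-74350490, minus strand: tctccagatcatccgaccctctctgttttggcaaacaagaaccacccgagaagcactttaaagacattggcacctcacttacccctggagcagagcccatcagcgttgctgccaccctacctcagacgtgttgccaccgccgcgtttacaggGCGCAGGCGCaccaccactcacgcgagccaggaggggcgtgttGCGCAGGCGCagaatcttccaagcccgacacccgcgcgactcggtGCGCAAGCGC
Sdhd, chr9:50603850-50604099, minus strand: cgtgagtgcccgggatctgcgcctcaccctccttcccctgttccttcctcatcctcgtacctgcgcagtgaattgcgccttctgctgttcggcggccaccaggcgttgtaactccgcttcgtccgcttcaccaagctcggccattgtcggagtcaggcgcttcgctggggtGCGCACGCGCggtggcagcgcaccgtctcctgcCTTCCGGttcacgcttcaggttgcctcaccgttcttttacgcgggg

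Complex III, the cytochrome bc1 complex, was mixed. Its median was -0.22 with LPS, with 6 of 8 genes below 0, and 0.07 for SEA/LPS over LPS. Uqcrfs1, the Rieske iron-sulphur protein and the only catalytic subunit of the complex among the members, had signals of 1434 (MEDIA), 1579 (SEA), 2653 (LPS) and 2731 (SEA/LPS). Both arrays with LPS were higher than both without, by 1.85-fold for LPS over MEDIA, and SEA made a difference of 0.04 in the presence of LPS. It had 1 probe set.

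Uqcrc1, a core protein on the matrix side, read 1348, 997, 1160 and 571. The SEA/LPS array was low, 2.03-fold under LPS and 2.36-fold under MEDIA, and SEA alone was at -0.44. Uqcrc2, its partner, read 765, 720.1, 524 and 670.5, and so had LPS as its low array. Its second probe set read 0.34 with LPS, the opposite sign. Uqcr11 read 489.5, 454, 302 and 455, and Uqcrb, at 3757, 3631, 2753 and 3372, also had LPS lowest, with a smaller difference of -0.45. Uqcr10 read 593, 419, 768 and 536.5, but its 2 other probe sets averaged -0.33 with LPS and 0.26 for SEA/LPS over LPS, against 0.37 and -0.52 on the one used. Uqcrh and Uqcrq were within 1.5-fold on the probe sets used.

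Complex IV, cytochrome c oxidase, differed little with LPS. Its 14 measured genes had a median of -0.01, which was 0.11 with a common 75th percentile, -0.12 after quantile normalization and -0.54 with the hybridisation controls, so it has no settled sign. The ubiquitous subunits Cox4i1, Cox5a, Cox5b, Cox6a1, Cox6b1, Cox6c, Cox7a2 and Cox8a lay between -0.34 and 0.20. Cox7a2l, which joins complexes III and IV into supercomplexes, read 1783, 1932, 1219 and 1638, with LPS lowest at -0.55, and its 2 other probe sets read -0.57 and -1.06. Ndufa4 read 80.7, 89.8, 106 and 89.7, with LPS the highest array at 1.32-fold over MEDIA.

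In SEA/LPS over LPS, Cox8a stood out in complex IV. It had signals of 3262 (MEDIA), 3405 (SEA), 3699 (LPS) and 2003 (SEA/LPS). The first 3 arrays lay within 1.13-fold of each other and SEA/LPS was 1.85-fold under LPS. Its second bright probe set gave a larger difference of -1.18, from signals of 3339, 3428, 3661 and 1618. Cox5b, which read 3423, 3651, 3921 and 3069, Cox6a1, which read 5167, 5230, 5290 and 4477, and Cox5a, which read 3159, 2976, 3070 and 2652, had SEA/LPS as the low array too. Their differences over LPS were -0.35, -0.24 and -0.21, all under 1.5-fold. Cox7a2l (0.43), Cox6c (0.34), Cox7a2 (0.33), Cox4i1 (0.30) and Cox6b1 (0.29) were higher, so the ubiquitous subunits were split.

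Tissue-restricted isoforms of complex IV count among its members, and 4 of 6 were measured. Without them, the 10 measured ubiquitous genes had a median of -0.07 with LPS. Cox6b2 (testis) and Cox8b (heart and muscle) were at the floor on all arrays. Cox7a1, of heart and muscle, read 32.0, 36.1, 20.2 and 47.8, around the floor, and Cox6a2, of the same tissues, 53.9, 68.9, 60.1 and 66.2. Cox4i2, of lung, read 99.3, 96.7, 98.3 and 72.6, and Cox8c, of testis, 144, 177, 225 and 203. Cox8c, at 0.64, is among the members counted as at least 1.5-fold higher with LPS. The ubiquitous Cox7c was at 20.9 or lower on both of its probe sets.

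Complex V, the ATP synthase, had a median of -0.14 with LPS, which was -0.01 with a common 75th percentile and -0.70 with the hybridisation controls, and 0.19 for SEA/LPS over LPS. The largest difference of any member was in Atp5g1, which encodes the c subunit of the membrane rotor. It had signals of 550.3 (MEDIA), 534 (SEA), 144 (LPS) and 392.1 (SEA/LPS). LPS was the single low array, 3.82-fold under MEDIA, and SEA/LPS was 2.72-fold above LPS. Mammals have 3 genes for this subunit, and their mature proteins are the same.

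The other c subunit genes had the same order with smaller differences. Atp5g2 read 1471, 1533, 838 and 1242, or -0.81 with LPS and 0.57 for SEA/LPS over LPS. Atp5g3 read 3377, 3088, 2768 and 2972, or -0.29 and 0.10. All 3 had LPS as the lowest array, and Atp5g1 and Atp5g3 had 1 probe set each. The promoters of Atp5g1 and Atp5g2 are set side by side because these genes encode 1 mature protein and differed in size of response. Atp5g1 had none of the 3 motifs in its window, and Atp5g2 had the NRF1 letters, which read as the motif on both strands, at -42. Atp5g3, which had the smallest difference with LPS of the 3 genes, had the NRF1 letters too, on the other strand at 12. Any link between the motif and the size of the difference was not tested.
Atp5g1, chr11:96075632-96075881, minus strand: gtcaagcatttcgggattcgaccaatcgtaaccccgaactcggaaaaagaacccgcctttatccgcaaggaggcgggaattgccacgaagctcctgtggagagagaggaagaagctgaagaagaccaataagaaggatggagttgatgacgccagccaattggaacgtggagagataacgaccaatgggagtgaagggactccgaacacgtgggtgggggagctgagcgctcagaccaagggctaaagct
Atp5g2, chr15:102671048-102671297, minus strand: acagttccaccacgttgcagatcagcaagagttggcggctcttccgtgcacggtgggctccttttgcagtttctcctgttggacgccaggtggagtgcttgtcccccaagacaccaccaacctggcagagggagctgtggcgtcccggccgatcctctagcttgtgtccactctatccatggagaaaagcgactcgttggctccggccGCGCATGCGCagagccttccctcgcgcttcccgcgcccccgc

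**Figure D3:**
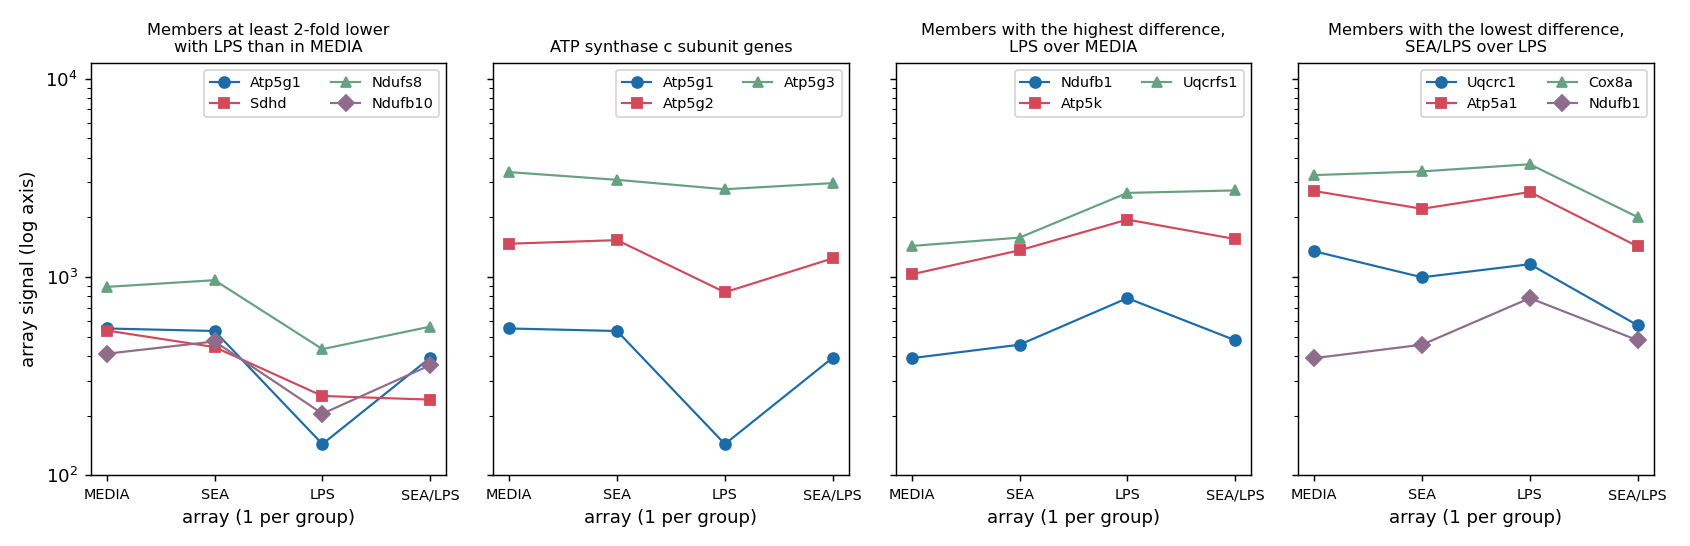
Array signal (log axis) of selected members on the 4 arrays, 1 per group, with lines joining the values of 1 gene. Ndufs8 and Ndufb10 are lowest with LPS, at 433 and 205, with Atp5g1 at 144, Uqcrfs1 is high on both arrays with LPS, and Uqcrc1, Atp5a1 and Cox8a are low with SEA/LPS, at 571, 1425 and 2003.

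The catalytic head of the ATP synthase, F1, was split. Atp5a1 and Atp5b encode the alpha and beta subunits, which form the catalytic sites. Atp5a1 read 2712, 2207, 2680.1 and 1425, and Atp5b read 1641, 2044, 1977 and 1284. In both, SEA/LPS was the lowest array, at -0.91 and -0.62 relative to LPS, and LPS stood within 0.27 of MEDIA. The second bright probe set of Atp5a1 gave -0.51. Atp5c1 and Atp5e, the gamma and epsilon subunits, had the opposite pattern, with LPS lowest: Atp5c1 read 2225, 2079, 1713 and 2118, and Atp5e read 393, 475, 253 and 369. Atp5d, the delta subunit, read 2644, 2977, 2436 and 2397 and differed by -0.12 with LPS, where its other probe set gave -0.71.

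Of the 9 genes of the stalks and the rest of the membrane part, 7 were below 0 with LPS (median -0.13). Atp5o, which encodes the oligomycin sensitivity protein that links F1 to the outer stalk, read 672, 643.5, 358 and 558, or 1.88-fold lower with LPS and 1.56-fold higher with SEA/LPS than with LPS. Its second probe set, near the floor at 52.6 to 84.0, read 0.29 with LPS. Atp5k, a small membrane subunit, read 1031, 1363, 1946 and 1553 and was 1.89-fold higher with LPS, while its other probe sets read 0.42 and -0.73. The other 7 (Atp5h, Atp5j, Atp5j2, Atp5l, Atp5md, Atp5mpl and Atp5pb) lay between -0.22 and 0.15 with LPS.

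Subtracting the SEA difference without LPS from that with LPS gave the members a median of 0.14, against -0.06 for all genes. At 1.5-fold, 8 members were higher and 6 lower, where the background was 11.6% and 17.8%. At 2-fold 1 was higher and 0 lower, beside 3.16% and 6.54%. Atp5g1 had the highest value, 1.49, followed by Ndufa3 at 0.86. Cox8a (-0.95), Atp5b (-0.94) and Ndufb1 (-0.93) had the lowest. Among genes with a mean log2 signal of at least 8 the members' median stood 0.043 above that of all genes, against 0.20 for the full set.

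Other probe sets of the same gene gave the nearest thing to a repeat measurement. For 40 members, at least 1 other probe set was above the floor on all 4 arrays. Their mean had the same sign as the probe set used for 31 of 40 with LPS over MEDIA, 34 of 40 with SEA/LPS over LPS, 29 of 40 with SEA/LPS over MEDIA and 22 of 40 with SEA over MEDIA. On both kinds of probe set, most values lay below 0 with LPS over MEDIA and above 0 with SEA/LPS over LPS. Many signs would therefore match even if probe sets of single genes were unrelated. The same count over all genes was not taken. The median over these genes was -0.27 on the probe sets used and -0.35 on the others for LPS over MEDIA, and 0.25 and 0.21 for SEA/LPS over LPS. Single genes moved more than that, with a median gap of 0.27 between probe sets with LPS. Probe sets of a gene share the RNA of the array and say nothing about other cultures.

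**Figure D4:**
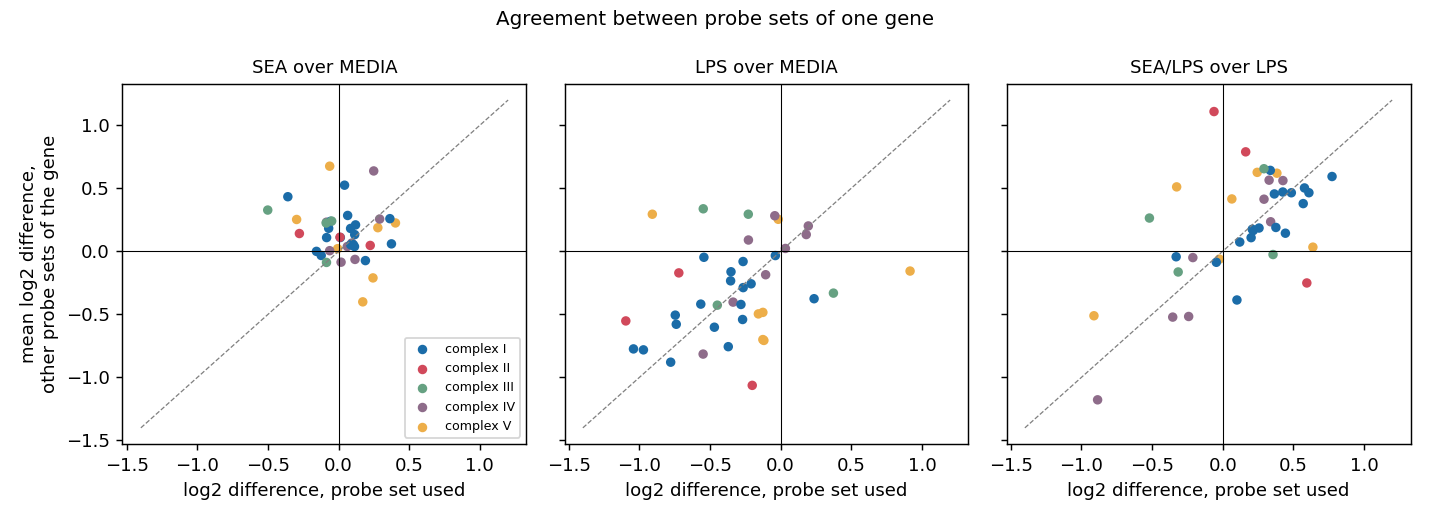
Log2 difference on the probe set used (horizontal) against the mean of the other probe sets of the gene (vertical) for 40 members in 3 comparisons, coloured by complex, with a dashed line of equality. Points lie mostly in the lower left with LPS over MEDIA (31 of 40 share a sign) and around 0 with SEA over MEDIA (22 of 40).

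Other genes of the chain were read from 4 lists, none of which holds a gene with a member's symbol. One of them includes Cyc1, which encodes cytochrome c1, a catalytic subunit of complex III whose symbol the rule does not cover. Cyc1 read 1363, 1296, 1145 and 1069, with differences of -0.25 for LPS over MEDIA and -0.10 for SEA/LPS over LPS. Of 12 measured electron carriers and ubiquinone synthesis genes, Cyc1 included, none differed by 2-fold with LPS (background 6.06% higher, 8.43% lower), and the median was -0.47. Coq4, Coq5 and Coq7, all needed to make ubiquinone, were at -0.88, -0.87 and -0.68. In SEA/LPS over LPS the list had a median of -0.04, with Etfa at -0.61, Coq9 at -0.52 and Cycs at 0.50. Cycs encodes cytochrome c and read 851, 903, 1202 and 1697.

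Assembly factors outside the rule had 1 of 18 measured genes (5.56%) at least 2-fold higher and 3 (16.7%) lower with LPS, beside 6.06% and 8.43% of all genes, with a median of -0.07. Cox17, a copper chaperone for complex IV, read 444, 659, 952 and 937, or 2.14-fold higher with LPS. Sco2, which also delivers copper, read 159.7 and 125 without LPS and was at the floor with LPS and SEA/LPS, at least 4.80-fold lower than in MEDIA on both. Sdhaf1, an assembly factor of complex II, read 374, 279, 159.9 and 178. In SEA/LPS over LPS, Oxa1l, which inserts proteins into the inner membrane, was at least 2.28-fold lower, Ecsit was at -0.81 and Cox15 at 0.59.

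Regulators of mitochondrial biogenesis had 1 of 18 genes (5.56%) higher and 1 (5.56%) lower by 2-fold with LPS, beside 6.06% and 8.43% of all genes, with a median of -0.24. Ppargc1b, a coactivator of respiratory genes, read 203 and 203 without LPS and was at the floor on both arrays with it, at least 6.08-fold lower than in MEDIA. Gabpb1, a subunit of the ETS factor GABP, read 57.5, 44.1, 136 and 99.3, and Hcfc1 was at -0.96. Nrf1 read 121, 127.5, 109 and 84.5. In SEA/LPS over LPS the list had 0 genes past 2-fold (background 1.39% higher and 3.47% lower, median -0.02), with Pprc1 at -0.80, Ssbp1 at 0.75 and Polrmt at -0.59.

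Carriers, channels and import genes of mitochondria had 3 of 14 genes (21.4%) at least 2-fold lower with LPS and 0 higher, beside 8.43% and 6.06% of all genes (median -0.48). Slc25a5, an ADP/ATP carrier of the inner membrane, read 2797, 2170, 1239 and 1446, with LPS and SEA/LPS both low. Slc25a13 was at least 2.40-fold lower, at the floor with LPS, and Hspd1, the mitochondrial chaperonin, was at -1.03. In SEA/LPS over LPS this list had a median of 0.21, with Ucp3 at -1.30, Slc25a13 at 50.1 with SEA/LPS and at the floor with LPS (a bound of 0.59) and Atpif1, the inhibitor of the ATP synthase, at 0.49.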

How the data were processed

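Total RNA of 4 samples was measured on arrays whose probe sets carry Affymetrix names, 1 sample per group. The deposited values are linear intensities of 22690 probe sets per array, judged from the values to have been scaled by the authors to a common trimmed mean of about 150.1. Software, background step and scaling rule: not given in the sources used here. No scaling was added to the deposited intensities. A floor at the 40th percentile of all signals (33.3) was set and log2 taken.

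Probe sets were named through the platform annotation: 20380 had 1 symbol, 691 several, 1555 none and 64 were controls. Per gene, the probe set with the highest mean floored log2 was used. A gene with at least 1 array above the floor counted as measured (9473). Where 1 array of a pair is at the floor, the difference is a bound. Symbols and promoters came from RefSeq (GRCm38.p6), and no coordinates of probe sets were used. Members, lists and sizes were chosen with earlier results of these data known. All members may be named, with all 4 signals for the 3 brightest and the extremes of each complex and those past 2-fold. Of the other lists, the 3 with the largest difference with LPS and with SEA/LPS over LPS were named. Signals of other members, and Nrf1, were added after their values were seen. Alternatives were 3 scalings, 2 other floors, the mean over probe sets, leaving out cross-hybridising probe sets and a narrower member list, and 2 more were chosen after seeing the data. Tested on simulated data for LPS over MEDIA (8573 genes), counting at 2-fold recovered 100 of 100 genes made 4-fold higher, 100 of 100 made 4-fold lower and 0 of 8373 others. The simulated noise was small and the changed genes lay well above the floor, so this checks the counting code only. It says nothing about differences as small as most of those in the members. Python 3.11.15 and pandas 2.3.3 were used. The number of arrays limits the precision.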

Additional observations from a re-analysis of the deposited data

Results flagged for a closer look

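Probe sets outside those used for the members carried differences of at least 2-fold in 8 cases in the LPS over MEDIA comparison or in that of SEA/LPS over LPS, and these are listed because the members' values do not rest on them. With LPS over MEDIA, a second probe set of Sdhc read -1.06 and another of Cox7a2l -1.06, where the ones used read -0.20 and -0.55. Other probe sets of Ndufs8 read -1.05 and -1.04, beside -1.04 on the one used. A probe set annotated to both Ndufa11 and Ndufa11b, left out because it has several symbols, read -1.11, from 631 in MEDIA to 293 with LPS and 499.5 with SEA/LPS. In SEA/LPS over LPS, other probe sets of Cox8a and Cox5b read -1.18 and -1.07, beside -0.89 and -0.35 on those used. One of Sdhd read 1.11, where the one used read -0.06. Unused probe sets of Cox8a and Uqcrq also passed 2-fold in SEA/LPS over MEDIA, at -1.04 and -1.07, the latter a bound with SEA/LPS at the floor. None of these differences was tested, since each group has 1 array.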

How the results depend on the processing

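No paired analysis was possible because each group has 1 array and the shared replicate number only names the sample. A median was taken to have moved when it shifted by more than 0.1 log2, and a count when it moved by more than 1.5 times. Of 200 recomputed group values, 172 did neither. Scaling to a common 75th percentile gave members' medians of -0.13 for LPS over MEDIA and 0.10 for SEA/LPS over MEDIA, a change of sign. It gave 12 members at least 1.5-fold higher in SEA/LPS over LPS, and 6 higher and 3 lower in SEA/LPS over MEDIA. Complex III turned to 0.053 in SEA/LPS over MEDIA. Scaling to the hybridisation controls moved the median of all genes to -0.56 with LPS, 0.11 for SEA/LPS over LPS and -0.42 for SEA/LPS over MEDIA. The members' medians were then -0.82, 0.48 and -0.41, and 0.46 for the difference of differences. It gave 0 members higher and 61 (75.3%) lower with LPS, where 5.18% and 48.3% of all genes were. In SEA/LPS over LPS 25 (30.9%) were higher and 3 (3.70%) lower, beside 16.8% and 6.05% of all genes. In SEA/LPS over MEDIA 1 (1.23%) was higher and 21 (25.9%) lower, beside 5.72% and 38.1%. In the difference of differences 31 (38.3%) were higher and 3 (3.70%) lower, beside 25.9% and 8.83%. With SEA 1 (1.23%) was lower, beside 6.68%. Relative to all genes the members stood at 0.38 in SEA/LPS over LPS, and complex IV turned to 0.16 in the difference of differences. Quantile normalization gave the members -0.31 with LPS and -0.15 for SEA/LPS over MEDIA relative to all genes. With the floor at the 20th percentile 3 members (3.57%) were higher with SEA, beside 10.4% of all genes. With the mean over probe sets 4 (4.94%) were higher in SEA/LPS over LPS, beside 5.72%. Without _x_at and _s_at probe sets 0 were higher with SEA, beside 4.93% of all genes, and Ndufs8 read 0.024 with LPS. Leaving out _a_at sets as well, chosen after seeing the data, gave the same 0 (beside 4.93%) and 0.024. It also gave 0.052 for complex III in SEA/LPS over MEDIA. In the difference of differences it gave 5 members (8.62%) higher, beside 12.3% of all genes. Restricting to genes with a mean log2 signal of at least 8, also chosen later, gave the members 0.15 in SEA/LPS over LPS and 0.043 in the difference of differences, relative to all genes. The floor at the 50th percentile and the narrower member list moved none of these group values. The cause of each change was not tested.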

Other observations

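Probe sets with several symbols, which the member rule leaves out, reached further subunit genes and also some that are members, such as Ndufs5 and Ndufab1. Those shared by Ndufb4, Ndufb4b and Ndufb4c read 426, 469.5, 291 and 458 in the order MEDIA, SEA, LPS and SEA/LPS, and 244, 252, 185 and 271 on a second probe set. The one shared by Ndufs6 and Ndufs6b read 558, 856, 427 and 544.5, and the one shared by Ndufs5 and Ndufs5-ps read 268.5, 350.3, 222 and 275. LPS was the lowest array in each of these 4 probe sets, where it was the lowest for 32.4% of all genes. The one shared by Ndufab1 and Ndufab1-ps read 331, 410.1, 363 and 333, with MEDIA lowest. MEDIA was also lowest for the one shared by Ndufb2 and Adck2, which read 22.5, 40.4, 42.1 and 43.5, around the floor. The one shared by Ndufa13 and Yjefn3 was at the floor on all arrays.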
